A study of Homo sapiens with 4 samples.

Results

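Cytokine genes and target genes of the transcription factor NF-kB were followed on 4 Affymetrix arrays, 1 per group. The cells were of 2 human lung carcinoma lines, A549 (adenocarcinoma) and NCI-H358 (bronchioloalveolar carcinoma). In each line 1 stably transduced culture carried the CHST11 vector, for a Golgi sulfotransferase that acts on chondroitin chains, and 1 carried the empty vector. All 4 cultures, controls included, had been through antibiotic selection. Whether a culture was a pool or 1 clone, and which promoter drove the vector, is not given in the sources used here. A list of 34 genes was fixed by name, with earlier results of these data known. A gene was taken where the platform annotation gave a probe set its symbol alone, and the brightest such probe set over the 4 arrays (mean of log2 signals) stood for it. Of the 34, 30 had such a probe set, 52 probe sets in all, among 19775 genes and 54675 probe sets on the array. BIRC3 and CSF2 had no such probe set and were not analysed here. The probe sets of SAA1 and SAA2 carry both symbols, so neither gene was analysed here.

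NF-kB is a family of dimeric transcription factors that inhibitor proteins of the IkB family hold in the cytoplasm. Signals such as interleukin 1, tumour necrosis factor or bacterial products lead to the breakdown of the inhibitor, the dimers enter the nucleus, and they bind kB sites in promoters and enhancers. Among their targets are cytokines, chemokines that recruit neutrophils and monocytes, adhesion molecules, and the inhibitors NFKBIA and TNFAIP3, which end the response. In lung epithelium these genes take part in the early response to infection and injury, and carcinoma lines can express some of them without a stimulus.

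Promoter sequences around kB-like letters are printed for some, not all, of the members whose signals differed between the lines. That of CXCL6, a near copy of CXCL5 that was below the filter on all arrays, is added. The marked letters are alike because they were searched for. RefSeq promoter windows (GRCh38.p14, 250 bases before to 50 after a start) were found for 25 of the 34 genes. The letters GGANTTTCC, searched on both strands, were in a window of 14 of these 25 genes, or 56.0%, and in 2.01% of all 27305 genes with a window. The kB consensus, searched by its usual letters on both strands, was in a window of 14 of 25 as well, against 7.09% of all genes, and 12 of the 16 matches to GGANTTTCC overlapped a match to it. Since the list was drawn up as NF-kB targets, this share describes the list and is no finding. The capitals mark GGANTTTCC or its reverse complement.
CXCL1: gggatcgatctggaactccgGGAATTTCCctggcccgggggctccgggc
CXCL3: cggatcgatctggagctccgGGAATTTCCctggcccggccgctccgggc
CXCL5: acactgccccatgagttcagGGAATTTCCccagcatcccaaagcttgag
CXCL6: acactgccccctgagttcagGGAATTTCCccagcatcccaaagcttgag
CXCL8: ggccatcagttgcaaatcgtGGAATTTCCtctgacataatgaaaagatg
IL6: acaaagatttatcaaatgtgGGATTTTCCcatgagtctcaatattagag
NFKBIZ: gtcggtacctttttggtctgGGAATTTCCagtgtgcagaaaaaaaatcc
NFKBIA: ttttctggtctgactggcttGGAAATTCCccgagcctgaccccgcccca

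The stretches lie at chr4:73869295-73869343 on the plus strand for CXCL1, chr4:74038739-74038787 on the minus strand for CXCL3 and chr4:73998739-73998787 on the minus strand for CXCL5. CXCL6 is at chr4:73836569-73836617 and CXCL8 at chr4:73740458-73740506, both on the plus strand. IL6 is at chr7:22727108-22727156 and NFKBIZ at chr3:101827748-101827796, both on the plus strand, and NFKBIA at chr14:35404802-35404850 on the minus strand. The marked letters begin 78 bases before the start of CXCL1, 90 before that of CXCL5 and 91 before that of CXCL8. The CXCL5 and CXCL6 stretches share 48 of 49 letters, those of CXCL1 and CXCL3 45 of 49, and those of CXCL1 and CXCL5 21 of 49.

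Between the vectors, the probe sets that stood for the listed genes differed by less than 1.5-fold in both lines. A gene counted as measured in a line when either of the line's arrays reached a signal of 27.0 (the 60th percentile over all arrays), which left 23 genes in each line. With 1 array per group there was no replicate and no test within a line, and genes were counted by size, 1.5-fold. In A549, 0 of 23 were 1.5-fold higher with CHST11 and 0 were 1.5-fold lower, where 0.489% and 0.716% of 11448 measured genes were. In NCI-H358 it was also 0 and 0 of 23, against 0.895% and 0.272% of 11395 genes, so at these shares a count of 0 is ordinary for a list of this length. The widest ratios were those of IL32 in A549 (log2 -0.40) and NFKB2 in NCI-H358 (log2 -0.42). The 4 arrays limit the precision.

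**Figure D1:**
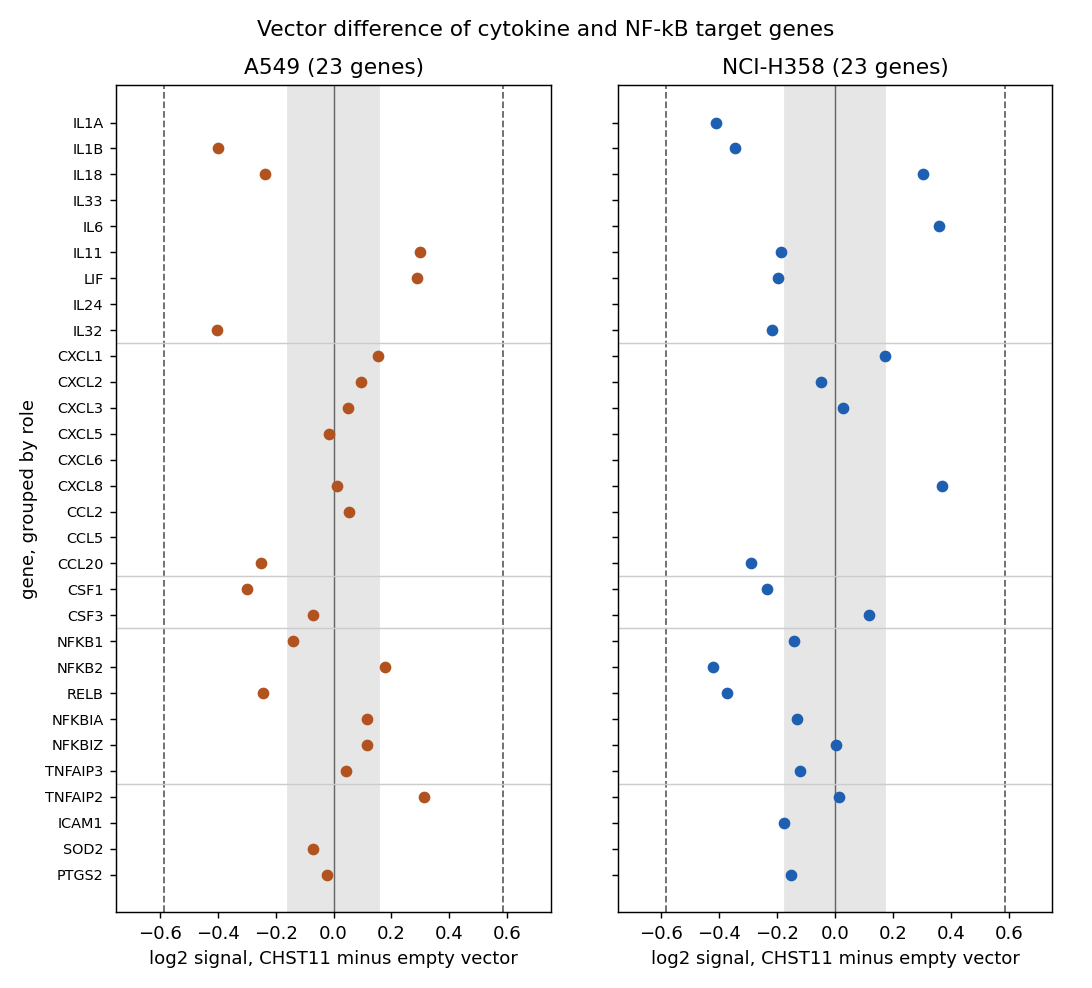
Log2 signal with CHST11 minus log2 signal with the empty vector (x axis) for each listed gene (y axis, grouped by role) in A549 and NCI-H358, 1 array per group; genes below the filter in a line have no point. The grey band is plus or minus 1 SD of the ratio between probe sets of a gene, the dashed lines are 1.5-fold, and every point lies inside them.

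Where a gene had several probe sets, the SD of their log2 vector ratios was 0.158 for A549 and 0.173 for NCI-H358. It measures scatter on the arrays, not the spread between cultures. Beyond it lay 10 of 23 listed genes in A549, against 27.8% of all measured genes, and 13 of 23 in NCI-H358, against 30.3%. The median log2 ratio of the list was 0.01 in A549, where that of all genes was 0.01 too, and -0.14 in NCI-H358, where that of all genes was 0.00. Below 0 were 11 of 23 in A549 (45.3% of all genes) and 15 of 23 in NCI-H358 (49.3% of all genes). These shares describe 1 pair of cultures per line, and no test of them was possible.

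Between the cell lines most of these genes differed, in both directions and by very different amounts. The difference was fitted with limma over all 4 arrays with terms for cell line and vector, so each line had 2 arrays that differ by vector. Of the 26 listed genes measured in at least 1 line, 16 were called higher in NCI-H358 and 6 higher in A549 at a Benjamini-Hochberg adjusted p of 0.05 over 12271 genes. The same fit called 33.9% of all genes higher in NCI-H358 and 30.6% higher in A549, so a call as such is common between these lines and the sizes carry more. The 22 called genes had signals that did not overlap between the lines, as was so for 85.7% of all 12271 genes. CSF3, IL32, NFKB2 and RELB were not called. With each array left out in turn, 17 of the 22 calls held every time, and with no filter on dim genes 7 and 2 were called in place of 16 and 6. The 13 calls that ended with no filter were those of IL1A, IL6, CXCL8, CXCL2, CSF1, IL11, LIF, TNFAIP3, TNFAIP2, NFKBIA, SOD2, PTGS2 and IL18, so the adjusted p given for each of these holds with the filter only.

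**Figure D2:**
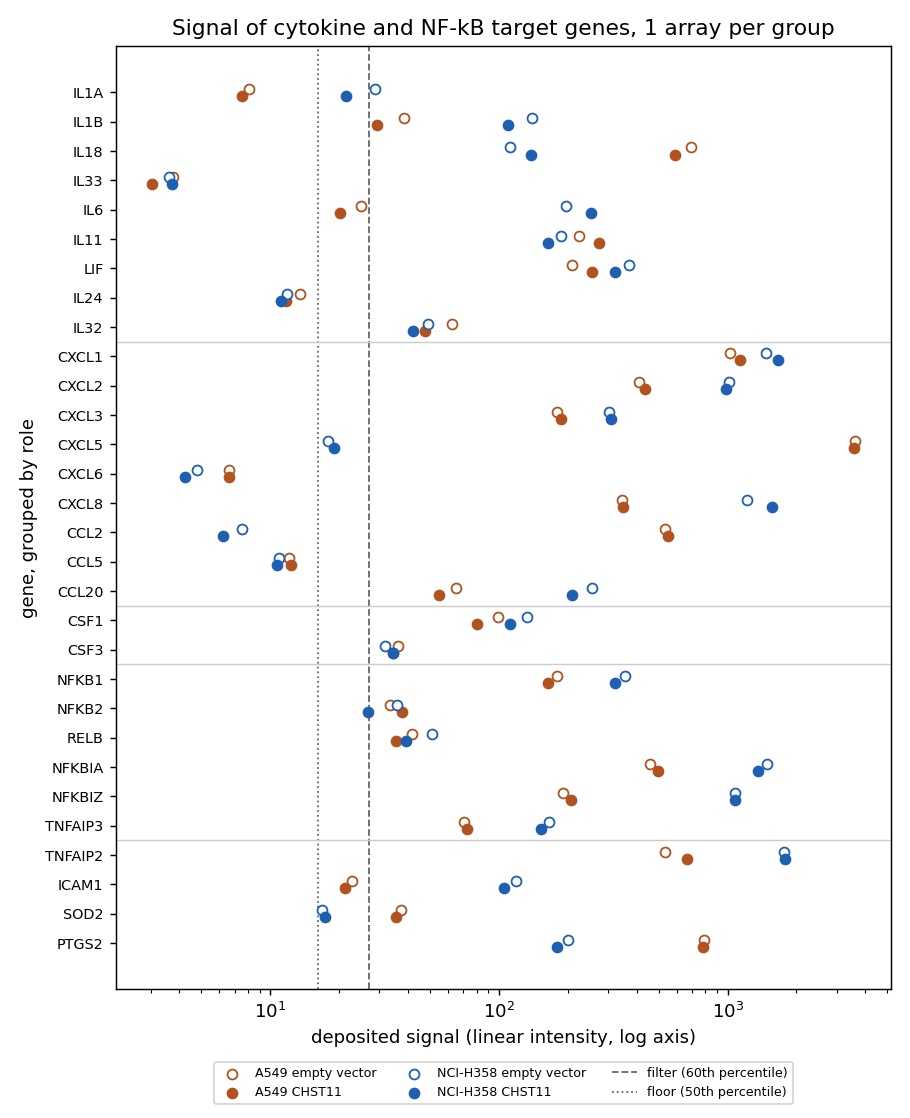
Deposited signal (x axis, log scale) of the 30 listed genes with a probe set (y axis, grouped by role) on the 4 arrays; open points are empty vector, filled points CHST11. The arrays of 1 line lie close together for most genes, while CXCL5 and CCL2 lie far higher in A549 and IL6 and NFKBIZ far higher in NCI-H358.

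Interleukin 1 family genes pointed to different lines. IL1B, the secreted fever cytokine, had signals of 38.5 and 29.3 in A549 with the empty vector and CHST11, and 139 and 109.5 in NCI-H358. Both NCI-H358 arrays were higher, 3.68-fold (log2 1.88, SE 0.088, limma adjusted p = 0.000158). With CHST11 its log2 ratio was -0.40 in A549 and -0.35 in NCI-H358, but its second probe set, below the filter in A549, gave 0.35 and 0.08. IL1A, the cell-bound sister cytokine, was dim, at 8.05 and 7.56 in A549 and 28.6 and 21.5 in NCI-H358. It was called higher in NCI-H358 (limma adjusted p = 0.0129), without a fold because only 1 of the 4 arrays reached the filter, and the call was lost when either A549 array was left out.

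IL18, which inflammasomes activate by cleavage, stood the other way. Its signals were 691 and 586 in A549 and 112 and 138 in NCI-H358, 5.11-fold higher in A549 (log2 -2.35 for NCI-H358 minus A549, SE 0.154, limma adjusted p = 0.000379). Within the lines its ratios had opposite signs, log2 -0.24 in A549 and 0.30 in NCI-H358. IL33, a nuclear alarmin of barrier epithelium, was below the filter on all 4 arrays, from 3.03 to 3.77.

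Of the cytokines that signal through gp130, IL6 differed most between the lines. IL6 drives the acute phase response, and its signals were 25.1 and 20.1 in A549, below the filter, and 197 and 253 in NCI-H358, at least 8.28-fold higher (limma adjusted p = 0.000229). Its vector ratio in NCI-H358 was log2 0.36. LIF, named for its inhibition of leukaemia cell growth, had signals of 209 and 255 in A549 and 370.0 and 323 in NCI-H358. IL11, a factor linked to fibrosis, had 224 and 275 in A549 and 187 and 164 in NCI-H358. LIF and IL11 were both higher with CHST11 in A549, with ratios of log2 0.29 and 0.30, and both lower in NCI-H358, with -0.20 and -0.19.

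LIF and IL11 were called between the lines only in fits with all 4 arrays. LIF was higher in NCI-H358 by log2 0.58 (SE 0.144, limma adjusted p = 0.0217) and IL11 1.42-fold higher in A549 (limma adjusted p = 0.0333), and each call was lost in all 4 fits that left out 1 array. The second IL11 probe set also turned the direction, with log2 0.33 for NCI-H358 minus A549 against -0.50, and had a vector ratio of -0.11 in A549. IL32, a cytokine gene without a mouse counterpart, had signals of 62.6 and 47.4 in A549 and 48.9 and 42.0 in NCI-H358, with log2 vector ratios of -0.40 and -0.22. Its difference between the lines was not called (limma adjusted p = 0.0672). IL24, of the interleukin 10 family, was below the filter on all 4 arrays, from 11.2 to 13.5.

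Of the 6 CXC chemokines, all of which attract neutrophils, 4 were above the filter in both lines. CXCL8, or interleukin 8, had signals of 346 and 349 in A549 and 1215 and 1568 in NCI-H358, 3.97-fold higher in NCI-H358 (log2 1.99, SE 0.121, limma adjusted p = 0.000307). CXCL2 had 408 and 435 in A549 and 1016 and 983 in NCI-H358, a 2.37-fold difference (limma adjusted p = 0.000558). This probe set and that of CXCL8 are of a class that can pick up related sequences. The other CXCL2 probe sets were below the filter on all 4 arrays, and a second CXCL8 probe set gave 4.49-fold. CXCL3 had 179.9 and 186 in A549 and 304 and 309 in NCI-H358, a 1.67-fold difference (limma adjusted p = 0.00204). All 3 had signals that did not overlap between the lines, which held for 85.7% of all 12271 genes. CXCL1 was nearest between the lines, with 1024 and 1138 in A549 and 1477 and 1662 in NCI-H358. It was 1.45-fold higher in NCI-H358 (limma adjusted p = 0.00569), and that call was lost without either A549 array or without the NCI-H358 CHST11 array.

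CXCL5, a neutrophil chemokine whose gene lies in the same cluster, stood in the opposite direction. Its signals were 3620.1 and 3584 in A549 and 17.8 and 19.0 in NCI-H358, at least 133-fold higher in A549 by this probe set (limma adjusted p = 2.62e-05), which is of a class that can pick up related sequences. A second CXCL5 probe set gave 1061 and 1123 in A549 and 5.94 and 4.21 in NCI-H358, at least 40.4-fold. The other one had 32.4 and 27.4 in A549 and 4.93 and 7.38 in NCI-H358, a bound of 1.10-fold. All 3 were higher in A549, and the size for the gene was not settled. CXCL6, whose promoter stretch differs from that of CXCL5 in 1 of 49 letters, was below the filter on all 4 arrays, from 4.22 to 6.63. The letters GGANTTTCC stood in the promoters of chemokines higher in NCI-H358 (CXCL1, CXCL2, CXCL3 and CXCL8), of one higher in A549 (CXCL5) and of one below the filter in both lines. The CXCL8 window held 0 matches to the kB consensus as searched, and the windows of the other 5 held 2 each.

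The vector ratios of the CXC chemokines lay near 0. In A549, CXCL1, CXCL2, CXCL3, CXCL5 and CXCL8 ran from log2 -0.01 to 0.15. In NCI-H358, CXCL1, CXCL2 and CXCL3 ran from log2 -0.05 to 0.17, while CXCL8 had 0.37. The second CXCL8 probe set gave 0.06 there, so the larger ratio rested on 1 of 2 probe sets.

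Of the CC chemokines, CCL2, which recruits monocytes, had signals of 531 and 551 in A549 and 7.55 and 6.21 in NCI-H358. It was called higher in A549 (log2 -5.07 for NCI-H358 minus A549 with the NCI-H358 signals at the floor of 16.1, limma adjusted p = 2.62e-05), with a vector ratio of log2 0.05 there. CCL20, the ligand of CCR6, had 64.8 and 54.5 in A549 and 255 and 209 in NCI-H358, 3.88-fold higher in NCI-H358 (log2 1.96, SE 0.088, limma adjusted p = 0.000142). It was lower with CHST11 in both lines, by ratios of log2 -0.25 and -0.29. CCL5, a T cell chemokine, was below the filter on all 4 arrays, from 10.7 to 12.3.

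CSF1, the growth factor of macrophages, had signals of 98.7 and 80.1 in A549 and 132 and 112 in NCI-H358. Its log2 vector ratios were -0.30 and -0.24. It was called 1.37-fold higher in NCI-H358 (limma adjusted p = 0.0101), and the call was lost whichever array was left out. CSF3, the granulocyte growth factor, lay just above the filter, at 36.1 and 34.3 in A549 and 31.9 and 34.6 in NCI-H358. The lines overlapped, and its difference, log2 -0.08 (95% confidence interval -0.34 to 0.17), was not called.

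**Figure D3:**
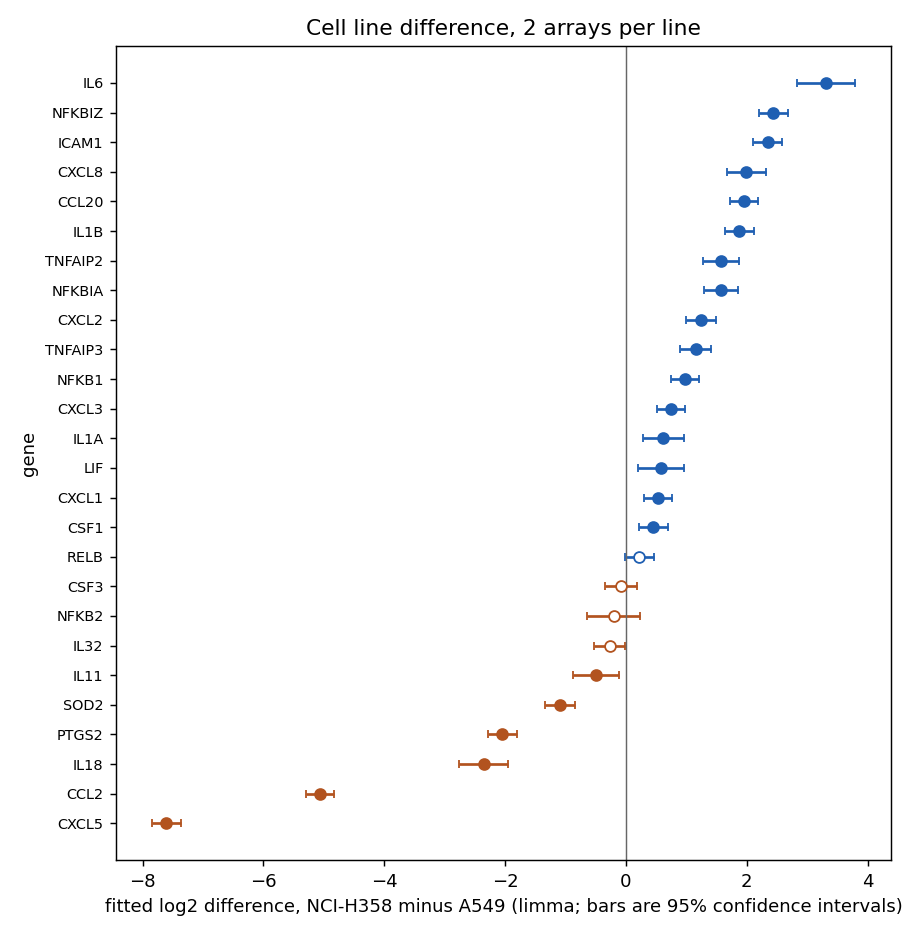
Fitted log2 difference, NCI-H358 minus A549 (x axis), of the 26 listed genes measured in at least 1 line (y axis), with 95% confidence intervals from limma over 2 arrays per line. Filled points passed an adjusted p of 0.05; 16 of them lie to the right (higher in NCI-H358) and 6 to the left, and values of dim genes are held in by the floor of 16.1.

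NFKBIA, NFKBIZ and TNFAIP3, which regulate NF-kB, were each higher in NCI-H358. NFKBIA, the IkB protein that is itself an NF-kB target, had signals of 459.6 and 498 in A549 and 1491 and 1360.5 in NCI-H358, a 2.98-fold difference (log2 1.57, SE 0.105, limma adjusted p = 0.000397). NFKBIZ, a nuclear IkB protein needed for a second wave of targets such as IL6, had 190.3 and 206 in A549 and 1073 and 1075 in NCI-H358. It was 5.42-fold higher in NCI-H358 (log2 2.44, SE 0.091, limma adjusted p = 9.33e-05). TNFAIP3, or A20, which edits ubiquitin chains on signalling proteins, had 70.1 and 72.3 in A549 and 165 and 152 in NCI-H358, a 2.23-fold difference (limma adjusted p = 0.000727). The signals of all 3 did not overlap between the lines, as was so for 85.7% of all 12271 genes.

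Their vector ratios were small by the probe sets that stood for them. NFKBIA had log2 0.12 in A549 and -0.13 in NCI-H358, TNFAIP3 had 0.04 and -0.12, and NFKBIZ 0.12 and 0.00. A second NFKBIZ probe set differed, with signals of 22.1 and 39.4 in A549, a log2 ratio of 0.83, and 179.8 and 155 in NCI-H358, a ratio of -0.21. With the median of both probe sets NFKBIZ had log2 0.47 in A549. Its direction with CHST11 in A549 was the same in both probe sets, and its size was not settled.

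Of the subunits, NFKB1, the precursor of p50, had signals of 180.2 and 164 in A549 and 354 and 321 in NCI-H358. It was 1.96-fold higher in NCI-H358 (log2 0.97, SE 0.087, limma adjusted p = 0.000911). Its vector ratio was log2 -0.14 in each line. NFKB2, the precursor of p52, and RELB, its partner in the alternative pathway, lay near the filter. NFKB2 had 33.5 and 37.9 in A549 and 35.9 and 26.8 in NCI-H358, and its vector ratios had opposite signs, log2 0.18 and -0.42. RELB had 41.9 and 35.3 in A549 and 51.1 and 39.4 in NCI-H358, with log2 vector ratios of -0.24 and -0.37. Neither difference between the lines was called, with log2 -0.20 for NFKB2 (95% confidence interval -0.64 to 0.24, limma adjusted p = 0.336) and 0.22 for RELB (-0.02 to 0.47, adjusted p = 0.0916).

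Among the other targets, ICAM1, the adhesion molecule that leukocyte integrins bind, had signals of 22.8 and 21.2 in A549 and 119 and 105 in NCI-H358. It was at least 4.13-fold higher in NCI-H358 by this probe set (limma adjusted p = 9.79e-05). A second, with 28.1 and 31.2 in A549 and 86.8 and 66.6 in NCI-H358, gave 2.57-fold, so the larger bound does not hold for every ICAM1 probe set. Its vector ratio in NCI-H358 was log2 -0.18, and the 2 other ICAM1 probe sets gave -0.38 and, below the filter, -0.44. TNFAIP2, a protein of membrane tubes, had 533 and 662 in A549 and 1764 and 1778 in NCI-H358, 2.98-fold higher in NCI-H358 (limma adjusted p = 0.000483). In A549 its vector ratio of log2 0.31 was the highest on the list, and in NCI-H358 it was 0.01.

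PTGS2, or cyclooxygenase 2, the inducible enzyme of prostaglandin synthesis, was higher in A549. Its signals were 791 and 778 in A549 and 200.5 and 180.3 in NCI-H358, a 4.12-fold difference (log2 -2.04 for NCI-H358 minus A549, SE 0.092, limma adjusted p = 0.000144). A second PTGS2 probe set gave log2 -1.98 for the same difference. The vector ratios of the 2 probe sets were -0.02 and 0.24 in A549 and -0.15 and -0.22 in NCI-H358. SOD2, the mitochondrial superoxide dismutase, was represented by 1 dim probe set, at 37.5 and 35.6 in A549 and 16.8 and 17.4 in NCI-H358. It was at least 1.35-fold higher in A549 (limma adjusted p = 0.000755). A further 4 probe sets carry the symbol SOD2 beside a second one and were not used, so this value describes that probe set more than the gene.

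**Figure D4:**
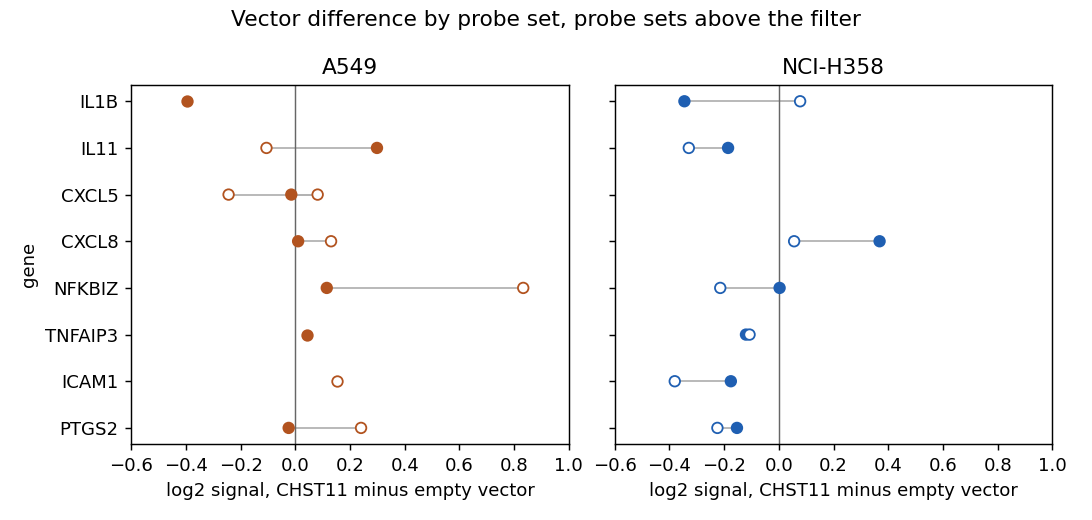
Log2 vector ratio (x axis) of every probe set above the filter for the 8 listed genes with several in a line (y axis), in A549 and NCI-H358; filled points are the probe sets that stood for the gene, lines join probe sets of a gene. In A549 the NFKBIZ probe sets lie at 0.12 and 0.83, and in NCI-H358 those of CXCL8 at 0.37 and 0.06.

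Other probe sets of the same genes were a check on direction. For the cell line difference, 7 of 8 genes with at least 2 probe sets above the filter had 1 sign in all of them, the exception being IL11. For the vector ratio, this held for 2 of 5 genes in A549 (CXCL8 and NFKBIZ) and for 5 of 7 in NCI-H358 (CXCL8, ICAM1, IL11, PTGS2 and TNFAIP3). The vector ratios of the list were thus of a size at which probe sets of 1 gene often differ in sign, while the cell line differences mostly were not.

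Treating the 2 lines as the replicates of the vector contrast, limma called 0 of the 26 listed genes, and 0% of all 12271 genes. The smallest adjusted p was 1 over all genes, with 374 genes, or 3.05%, at an unadjusted p under 0.05. Among those 374 were 5 listed genes, each lower with CHST11 in both lines: IL1B, RELB, IL32, CCL20 and CSF1. Their fitted log2 differences were -0.37 for IL1B (SE 0.088, limma unadjusted p = 0.0103), -0.31 for RELB (0.0233) and -0.31 for IL32 (0.0278), and -0.27 both for CCL20 (0.0307) and CSF1 (0.0326). For each of the 5 the limma adjusted p was 1. The second IL1B probe set was higher with CHST11 in both lines (log2 0.35 and 0.08), and with the median of its probe sets IL1B had -0.03 in A549 and -0.13 in NCI-H358. Of the 20 listed genes measured in both lines, 7 were lower with CHST11 in both and 5 were higher in both, where 21.5% and 26.2% of the 10572 genes measured in both lines were. The fit has 1 residual degree of freedom beside 3.54 prior ones. Its error for a gene therefore rests more on a variance pooled over all genes than on how far apart that gene's vector ratios lie in the lines.

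Genes around the list were read the same way, from lists of the pathway chosen by role. Beside each count called below stand the shares over all genes, 33.9% higher in NCI-H358 and 30.6% higher in A549. Of 27 receptors and adaptors upstream of NF-kB, 19 were measured in at least 1 line. Among them limma called 6 higher in NCI-H358 and 7 higher in A549. IRAK2, a kinase of the interleukin 1 receptor, was 2.67-fold higher in NCI-H358 (signals 425 and 432 against 176 and 146), and TLR2, a receptor for bacterial lipoproteins, at least 2.14-fold. Higher in A549 were IL1R1, the interleukin 1 receptor (209 and 223 against 59.1 and 56.5, 3.74-fold), and TNFRSF1A, the main receptor for tumour necrosis factor (1367 and 1395 against 433 and 385, 3.38-fold). IL1RAP, the other chain of the interleukin 1 receptor, was 2.09-fold higher in NCI-H358 (99.2 and 101 against 51.1 and 44.6), so the chains of that receptor stood in opposite directions; it was named after its values were seen. None of these genes differed 1.5-fold between the vectors in either line, with IRAK2 lowest in A549 at log2 -0.26, IL1RL1 highest at 0.45, and CD40 and TAB2 at the ends in NCI-H358 with -0.26 and 0.28.

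Of 23 core factors and regulators, 20 were measured, 8 called higher in NCI-H358 and 7 in A549. TNIP1, a binding partner of A20, was 2.48-fold higher in NCI-H358 (signals 955 and 852 against 373 and 356), and CYLD, a deubiquitinase, 1.92-fold. MALT1, a paracaspase, was 2.32-fold higher in A549, and MAP3K14, the kinase of the alternative pathway, was called higher in A549 too (71.2 and 68.9 against 33.4 and 36.6). With CHST11, REL and MALT1 marked the ends in A549 at log2 -0.21 and 0.20, and NFKBIE and BCL10 in NCI-H358 at -0.39 and 0.36. NFKBIE is another IkB protein. In NCI-H358, 12 of the 20 measured core factors and regulators had ratios below 0 and 8 above, where 49.3% of all genes lay below 0. Their median there was log2 -0.03.

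Among 26 receptors, decoys and transducers of the listed cytokines, 17 were measured, 3 called higher in NCI-H358 and 7 in A549. LIFR, the receptor for LIF, had signals of 44.4 and 36.9 in A549 and 146 and 195 in NCI-H358, 4.16-fold higher in NCI-H358, and IL20RB, a receptor chain for IL24, was at least 2.56-fold higher there. SIGIRR, a decoy-like receptor that damps interleukin 1 signalling, was 3.64-fold higher in A549, and IL11RA, the receptor for IL11, at least 1.97-fold. Their largest vector ratios were log2 -0.27 (LIFR) and 0.40 (IL11RA) in A549 and -0.30 (CSF3R) and 0.42 (LIFR) in NCI-H358.

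Of a further 46 NF-kB targets outside the list, 30 were measured, with 19 called higher in NCI-H358 and 6 in A549. Of all genes tested, 33.9% and 30.6% were called so. PTX3, a soluble pattern recognition protein, had signals of 328 and 272 in NCI-H358 and was below the filter in A549, at least 11.1-fold higher. LCN2, a protein that binds bacterial siderophores, was 14.7-fold higher in NCI-H358 (3529.7 and 3359.6 against 251 and 219). Higher in A549 were EDN1, endothelin 1, at 14.4-fold (943 and 956 against 64.1 and 67.8), and CXCL16, at least 5.43-fold. With CHST11, 1 of these genes passed 1.5-fold, MMP9 in NCI-H358, with 130.2 and 76.2 (1.71-fold lower). The median vector ratio of these targets was log2 0.02 in A549 and -0.10 in NCI-H358. Below 0 were 11 of 25 in A549 (45.3% of all genes) and 21 of 29 in NCI-H358 (49.3% of all genes). With 1 array per group these shares were not tested.

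Several measurements of the whole arrays stand beside these values. CHST11 differed between the vectors by 2.66-fold in A549 and 4.80-fold in NCI-H358 at 1 of its 3 probe sets, and the other 2 lay between 0.90-fold and 1.10-fold. All 6 epithelial markers were above the filter on every array, with EPCAM 1.71-fold lower with CHST11 in A549. The alveolar factor NKX2-1 was below the filter in A549 and at 247 and 264 in NCI-H358. The alveolar lipid transporter ABCA3 stood the other way, with 108 and 116 in A549 and 18.6 and 37.8 in NCI-H358. Its log2 vector ratio in NCI-H358 was 1.03, with the empty vector signal below the filter. The alveolar markers SFTPB and SFTPC were not called between the lines. SFTPD, NAPSA, AQP5 and AGER were below the filter on all 4 arrays. Of 12 leukocyte markers with a probe set, 2 reached the filter in A549, CD3E on the empty vector array and CD14 on the CHST11 array, and 2 in NCI-H358, CORO1A and LAPTM5, with summed signals of 161 and 179 in A549 and 271 and 246 in NCI-H358. CD14, a co-receptor for bacterial lipopolysaccharide, had 24.2 and 38.4 in A549, a log2 vector ratio of 0.67 with the empty vector signal below the filter. The leukocyte antigen PTPRC lay between 4.21 and 5.69 on all 4 arrays, far below the filter. Of 6 endothelial markers, only PECAM1 reached the filter, on all 4 arrays (34.6 to 40.0). Of 8 fibroblast markers, COL1A1 reached it on all 4 arrays (153 to 170) and THY1 in A549 only (33.5 and 40.9). In A549, 28 genes with long mRNAs had a median log2 vector ratio of -0.63, 27 of them below 0 and 17 at least 1.5-fold lower. In A549, 7 genes of the mitochondrial genome had one of 0.73, with 6 at least 1.5-fold higher. In NCI-H358 these medians were 0.11 and -0.14. The part of these shifts in the vector ratios of the listed genes was not tested.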

How the data were processed

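Biotin-labelled cRNA from 4 cultures was measured on 1-colour Affymetrix arrays. The deposited table holds linear intensities, for which the submitters' processing notes name MAS5. Its version and scaling target are not stated there, and whether a further step was applied between arrays is not known. For log2 values, signals under 16.1 (the 50th percentile over all arrays) were set to it, and the filter was 27.0 (the 60th percentile). A fold against a signal below the filter was computed against the filter and is given as at least that fold. Of the probe sets, 41091 had 1 gene symbol in the platform annotation, 1801 several and 11721 none, and 62 controls were left out. By Entrez ID, 99.9% of the single-gene probe sets matched RefSeq (GRCh38.p14), which also gave the promoters. Groups came from the labels, with 1 array each. The cell line difference and the shared vector difference were fitted by lmFit and eBayes of limma 3.58.1 under R 4.3.3 (Benjamini-Hochberg adjustment over 12271 genes, 1 residual degree of freedom, prior 3.54). The cell line fit was also run on simulated data with few changed genes, equal noise and no floor. These settings differ from the data, so that run cannot vouch for the calls here. Nothing in the labels says that the 2 arrays of a line are separate cultures beyond their vectors. Other steps used Python 3.11.15, pandas 2.3.3 and matplotlib 3.10.9. All listed genes are named. Of the other NF-kB and cytokine lists, the genes 1.5-fold apart between vectors or else the highest and lowest per line are named, with the 2 highest and 2 lowest called between the lines. IL1RAP and the marker genes were picked for naming after their values were seen. The members, lists and rules were chosen with earlier results of these data known. Alternatives were 3 normalizations of the arrays, other floors and filters, the median of probe sets, other variance terms, and fits without 1 array.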

Additional observations from a re-analysis of the deposited data

Results flagged for a closer look

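Of the 20 listed genes measured in both lines, 4 had vector ratios of opposite sign in A549 and NCI-H358, each beyond the SD between probe sets of its line. Over all genes measured in both lines this was so for 617 of 10572, or 5.84%. The differences, NCI-H358 minus A549 on the log2 scale, were -0.48 for IL11, -0.49 for LIF, -0.60 for NFKB2 and 0.54 for IL18. With 1 array per group, none of these differences was tested. LIF, NFKB2 and IL18 rest on 1 probe set above the filter, and the second IL11 probe set had -0.11 in A549 and -0.33 in NCI-H358, which are not of opposite sign.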

How the results depend on the processing

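Under quantile normalization, median centring, cyclic loess, a floor at the 25th percentile, no floor, a filter at the 75th percentile, no filter and the median of probe sets, 0 listed genes were 1.5-fold apart between the vectors in either line. The median vector ratio ran from log2 -0.002 to 0.07 in A549 and from -0.17 to -0.02 in NCI-H358. With the filter at the 75th percentile, 5 of 15 measured genes had a ratio below 0 in A549, against 11 of 23. The shared vector difference called 0 listed genes under these alternatives and with an intensity trend. With no filter, limma called 7 listed genes higher in NCI-H358 and 2 higher in A549 in place of 16 and 6; the cause was not tested. Leaving out 1 array, with cell line as the only term, gave 12 to 14 and 5, and 17 of the 22 calls held in all 4 such fits. CXCL1, CSF1, IL11, LIF and IL1A were the calls lost in some of them. With the median of probe sets, IL11 was no longer called between the lines, at log2 -0.08. IL32 was called higher in A549 under quantile normalization (-0.29) and cyclic loess (-0.30). No called cell line difference was reversed under the alternatives run. Signals near the filter, such as those of IL1A, NFKB2, CSF3 and SOD2, limit what can be read from them.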

Other observations

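CX3CL1, the membrane-bound chemokine fractalkine, was outside the listed genes and was picked after its values were seen. Its signals were 25.05 and 33.99 in A549 and 54.1 and 40.3 in NCI-H358. The log2 vector ratios were 0.44 in A549, with the empty vector signal below the filter, and -0.42 in NCI-H358. LIFR, the receptor for LIF, had ratios of -0.27 and 0.42, the reverse of the signs of LIF itself. IL11RA, the receptor for IL11, had 0.40 in A549, the same sign as the 0.30 of IL11 there, and was below the filter in NCI-H358. These differences between the lines were not tested.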
